A study of Mus musculus with 6 samples.

Results

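The genes described here set the brake and the accelerator of the step by which a cell commits to copying its DNA: CDK inhibitors (Cdkn2d, Cdkn2c, Cdkn1a, Cdkn1b and Cdkn1c), D cyclins (Ccnd1, Ccnd2 and Ccnd3) and the kinases they act on (Cdk4 and Cdk6). The 10 genes were named for these functions, and the group was chosen because Cdkn2d was higher in mutant platelets. Counts were read for 7 of them among 9822 genes in all; Cdkn2c, Cdkn1a and Cdkn1c were not analysed here. Platelets, the anucleate cells of blood clotting, came from males heterozygous for the C587R change in Nxf1 (Nxf1+/C587R, here mutant) and from wild-type littermates, both on the BalB/c background, with no treatment or age in the labels. The Nxf1 protein is the chief export receptor for mRNA. Every library is a pool of suspensions that were over 98% positive for the platelet surface protein CD41, with 3 pools per genotype. The batches 1, 2 and 3 of the labels each hold 1 mutant and 1 wild-type pool, and pools were prepared on 3 distinct days. The number of animals per pool is not stated, and p-values describe the variation among pools only.

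Libraries had 25189231 to 29421549 counts. All 12 platelet markers looked up were counted, with summed levels of 44283 to 48943 CPM (read counts scaled to a common library total) in mutant and 34920 to 42199 CPM in wild-type libraries, and 5 of them were called higher and 2 lower in the mutant (8 and 2 with the batch as a block), where 12.9% of all genes were called higher and 9.16% lower by edgeR at an adjusted p of 0.05. Of these 7 calls, Gp9 lost its call in 7, Gp5 in 6 and Ppbp in 1 of 9 fits that left out 1 library or batch. All 2166 genes called without the block were also called in the same direction with it by edgeR. With the block edgeR called 22.0% of all genes higher and 18.0% lower, the background for the block counts given here. The 2 libraries of batch 1 stood apart: 7 erythroid markers summed to 31515 CPM in the mutant and 35716 CPM in the wild-type library of that batch, against 3970 to 4560 CPM in the other mutant and 4306 to 4428 CPM in the other wild-type libraries. B cell markers summed to 165 to 215 CPM in mutant libraries, against 210.2 to 288 CPM in wild-type libraries, and 3 of 7 were lower in the mutant (5 with the block). T and NK cell markers (7 of 8 counted, 20.3 to 22.3 CPM in mutant libraries, against 19.5 to 24.7 CPM in wild-type libraries) and neutrophil markers (3 of 7 counted, 11.5 to 18.6 CPM and 11.1 to 17.0 CPM in the same order) did not include a called gene; with the block 1 T or NK cell marker was higher and 1 lower, and 1 neutrophil marker was lower. Of 5 monocyte markers Lyz2 was higher and Ly6c2 lower in the mutant, calls lost in 4 and 8 of the 9 fits, and with the block 1 was higher and 2 lower. The 7 erythroid markers had 0 calls, and 2 higher and 1 lower with the block. With the block in DESeq2, 8 platelet markers were higher and 3 lower, 4 B cell markers lower, and 1 monocyte marker higher. Erythroid markers then had 1 higher and 1 lower, and T and NK cell and neutrophil markers had 0 calls. Over all 9822 genes that DESeq2 fit called 1572 higher and 912 lower. No marker counted was at 0 in any library. The part of other cell types in the values given here was not tested. Nxf1 itself had 2.95, 2.61 and 4.30 CPM in mutant libraries, against 3.17, 3.08 and 4.94 CPM in wild-type libraries, with no call between genotypes (edgeR adjusted p = 0.604), and a missense change need not alter this level.

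D cyclins bind and activate the kinases CDK4 and CDK6, which phosphorylate the retinoblastoma protein and so free E2F factors to switch on genes of DNA replication. INK4 proteins such as the product of Cdkn2d bind the kinases themselves, while CIP/KIP proteins such as the product of Cdkn1b bind cyclin and kinase complexes. Megakaryocytes, which shed platelets, become polyploid by rounds of DNA replication without division; D3 is known as their main D cyclin, and the Cdkn2d product is known to build up as they stop replicating and mature. Platelets have no nucleus and make little new mRNA, so their transcripts are largely those handed over by the megakaryocyte.

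Cdkn2d (Entrez 12581) and Ccnd3 (Entrez 12445) held most of the RNA of the group and were both higher in the mutant, so the DNA around their annotated transcript starts is shown. Each window runs from 250 bases before a RefSeq transcript start through the first 50 bases of the transcript. Promoter entries were found for 7 of the 10 genes in RefSeq (build GRCm38.p6, the same assembly as mm10); Ccnd1, Ccnd2 and Cdkn1c had none. Capitals mark GC boxes (GGGCGG) and CCAAT boxes (CCAAT) on either strand, words that do not overlap in these windows. Cdkn2d lies on chromosome 9 and its window is chr9:21291160-21291459 on the minus strand. The start used for Cdkn2d lies inside the annotated gene, so 262 of the 300 bases fall within the gene and 38 in front of it. Ccnd3 lies on chromosome 17 and has 2 annotated starts, with windows chr17:47504801-47505100 (distal) and chr17:47593217-47593516 (proximal) on the plus strand; the proximal window lies wholly within the gene.
Cdkn2d: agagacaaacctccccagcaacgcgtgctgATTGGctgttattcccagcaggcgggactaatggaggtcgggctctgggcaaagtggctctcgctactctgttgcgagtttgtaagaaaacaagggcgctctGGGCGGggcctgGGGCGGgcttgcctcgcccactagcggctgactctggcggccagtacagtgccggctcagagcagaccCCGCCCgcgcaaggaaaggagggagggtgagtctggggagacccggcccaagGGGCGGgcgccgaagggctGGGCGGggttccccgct
Ccnd3 distal: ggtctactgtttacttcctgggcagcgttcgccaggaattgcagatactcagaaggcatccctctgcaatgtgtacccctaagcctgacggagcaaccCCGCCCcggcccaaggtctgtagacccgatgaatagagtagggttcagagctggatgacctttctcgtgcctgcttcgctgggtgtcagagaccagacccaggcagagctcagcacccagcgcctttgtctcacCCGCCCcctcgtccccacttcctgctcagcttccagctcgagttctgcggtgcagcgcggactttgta
Ccnd3 proximal: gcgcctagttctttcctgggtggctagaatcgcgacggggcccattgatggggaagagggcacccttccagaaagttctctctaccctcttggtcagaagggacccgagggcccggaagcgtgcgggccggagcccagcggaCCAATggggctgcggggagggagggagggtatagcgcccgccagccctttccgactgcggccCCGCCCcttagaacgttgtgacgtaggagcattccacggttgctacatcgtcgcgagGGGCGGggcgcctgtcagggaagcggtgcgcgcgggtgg
The Cdkn2d window held 5 GC boxes and 1 CCAAT box, the distal Ccnd3 window 2 GC boxes and 0 CCAAT boxes, and the proximal one 2 and 1. A GC box was held by 35.7% and a CCAAT box by 37.4% of all 32851 RefSeq promoters. The 4 E2F words searched (TTTCCCGC, TTTGGCGC, TTTCGCGC and TTTGCCGC, both strands), present in 2.26% of all promoters, did not occur in these 3 windows, nor did the GATA words AGATAA and TGATAA (18.6%). A RUNX word (TGTGGT or TGCGGT, in 22.4%) occurred once in the distal Ccnd3 window, and the ETS word CGGAAG (16.9%) once in the proximal one. These are matches of letters only, and the counts per gene do not tell which Ccnd3 start was used.

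Cdkn2d, the INK4 inhibitor that chose the group, had 124, 109 and 87.4 CPM in the mutant libraries of batches 1, 2 and 3, against 47.0, 46.4 and 34.0 CPM in the wild-type libraries. Every mutant library lay above every wild-type library, and batch 3 was the lowest in both genotypes. Its mean was 107 ± 18.5 CPM over the 3 mutant and 42.5 ± 7.33 CPM over the 3 wild-type libraries (mean ± SD), a log2 fold change of 1.33 ± 0.15 (SE), or 2.52-fold. As this difference is what the choice rests on, it is given with no test. In bulk RNA a larger number of RNA molecules per platelet and a larger share of platelets carrying the transcript cannot be told apart. No annotated GENCODE gene overlapped Cdkn2d (21288459 to 21291421).

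Among the other 6 counted genes, 2 were higher in the mutant and 0 lower at an adjusted p of 0.05 (edgeR quasi-likelihood test, Benjamini-Hochberg adjustment over all genes). Over all 9822 genes 22.1% were called, 12.9% as higher and 9.16% as lower. The contrast is the one that chose the group, so nothing is read from this count. Both genes that rose were D cyclins, whereas Cdkn1b, Ccnd2, Cdk4 and Cdk6 did not pass. At an unadjusted p under 0.05 the counts were 2 higher and 0 lower, with no share of all genes given at that threshold. DESeq2 called 2 and 0, and over all genes 1135 higher and 734 lower. With limma-voom the counts were 2 and 0, and over all genes 1244 and 862. Nothing is read from these counts either.

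Ccnd3, which encodes the D cyclin known from megakaryocytes, had 645, 616 and 600.5 CPM in mutant libraries, against 357, 346 and 349 CPM in wild-type libraries. The genotypes did not overlap, with means of 621 ± 22.8 CPM over the 3 mutant and 351 ± 5.96 CPM over the 3 wild-type libraries (mean ± SD). On the log2 scale the difference was 0.82 ± 0.11 (SE, adjusted p = 1.78e-05 by edgeR), or 1.77-fold. At its end on chromosome 17 (47505051 to 47599689) Ccnd3 shares 361 exon bases with Bysl on the opposite strand, and the library kit does not mark strand. Bysl had 9.28, 9.60 and 9.72 CPM in mutant libraries, against 8.43, 6.98 and 6.94 CPM in wild-type libraries, a small level beside that of Ccnd3.

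Ccnd1 (Entrez 12443, chromosome 7, 144929931 to 144939831, minus strand) encodes the D cyclin best known from growth factor signalling. It had 6.04, 6.98 and 5.67 CPM in mutant libraries, against 2.43, 3.16 and 2.10 CPM in wild-type libraries, from 153 to 171 and 63 to 76 reads. Even the lowest mutant library was above the highest wild-type one. Apart from Cdkn2d, this held for 2 of the 6 genes, Ccnd1 and Ccnd3, and for 20.4% of all genes, and nothing is read from that count. The log2 difference was 1.29 ± 0.18 (SE, adjusted p = 4e-05 by edgeR), or 2.44-fold, from means of 6.23 ± 0.676 CPM over the 3 mutant and 2.56 ± 0.542 CPM over the 3 wild-type libraries (mean ± SD). Ccnd1 shares 1100 exon bases with LTO1, which runs on the opposite strand, so reads of the pair cannot be told apart there. LTO1 had 5.07, 4.66 and 4.01 CPM in mutant libraries, against 4.02, 3.33 and 3.20 CPM in wild-type libraries (log2 fold change 0.38 ± 0.17 SE, adjusted p = 0.128), so the level of Ccnd1 is uncertain. Ccnd1 and Ccnd3 passed in all 9 fits that left out 1 library or 1 batch, with a highest adjusted p of 0.000774 and 0.00443.

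Ccnd2 (Entrez 12444, chromosome 6, 127125162 to 127152188, minus strand), the D cyclin prominent in lymphoid and other blood cells, did not pass. It had 5.44, 5.76 and 6.71 CPM in mutant libraries, against 6.57, 7.36 and 6.94 CPM in wild-type libraries, and the ranges overlapped. The log2 difference was -0.22 ± 0.15 (SE, adjusted p = 0.337 by edgeR), with a 95% interval of -0.53 to 0.09. Ccnd2 shares 368 exon bases with 9330179D12Rik and 372 with Gm43126, antisense genes on the opposite strand, so its level is uncertain too.

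Cdkn1b (Entrez 12576, chromosome 6, 134920401 to 134925525, plus strand) encodes the CIP/KIP inhibitor that restrains CDK2 complexes and, when bound to D cyclin complexes, helps to assemble them. Its level was 28.4, 21.7 and 19.4 CPM in mutant libraries, against 32.1, 24.7 and 24.9 CPM in wild-type libraries. The ranges overlapped, and in both genotypes the library of batch 1, with its high erythroid RNA, was the highest. The log2 difference was -0.23 ± 0.14 (SE, adjusted p = 0.287 by edgeR, 95% interval -0.54 to 0.07). With the batch as a block Cdkn1b was called lower (adjusted p = 0.00557 by edgeR, where 40.0% of all genes were called, 22.0% as higher and 18.0% as lower), but not with DESeq2 and the same block (0.0632). It was also called lower, at -0.40 (adjusted p = 0.0466 by edgeR), in a fit of the 3021 genes averaging 10 CPM or more, where 49.0% were called, 24.0% as higher and 25.0% as lower. That fit rescales the libraries and shifts log2 fold changes by a median of -0.16, with Ccnd3 at 0.65 and Cdkn2d at 1.17.

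Cdk4 (Entrez 12567, chromosome 10, 127063535 to 127067288, plus strand) and Cdk6 (Entrez 12571, chromosome 5, 3341004 to 3531008, plus strand) encode the kinases of the pathway and were scarce. Cdk4 had 3.77, 3.43 and 4.49 CPM in mutant libraries, against 4.52, 3.66 and 4.68 CPM in wild-type libraries, which overlapped (log2 fold change -0.14 ± 0.17 SE, adjusted p = 0.624 by edgeR, 95% interval -0.51 to 0.22). Cdk6 had 0.485, 0.858 and 1.00 CPM in mutant libraries, against 1.16, 1.08 and 1.19 CPM in wild-type libraries, from 13 to 27 and 26 to 37 reads. Although its ranges did not overlap, as for 36.3% of all genes in either direction and 15.9% with the mutant lower, it did not pass (log2 fold change -0.55 ± 0.29 SE, adjusted p = 0.192 by edgeR, 95% interval -1.16 to 0.05). Every gene of the tables exceeds 0.5 CPM in 3 or more libraries. All 7 genes exceeded this in the 3 wild-type libraries, and all but Cdk6 (2 of 3) in the 3 mutant libraries. Cdk4 shares 641 exon bases with Tspan31 on the opposite strand, which makes its small level uncertain as well. The same holds for Cdk6, which shares 368 exon bases with the antisense gene Gm17590.

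**Figure D1:**
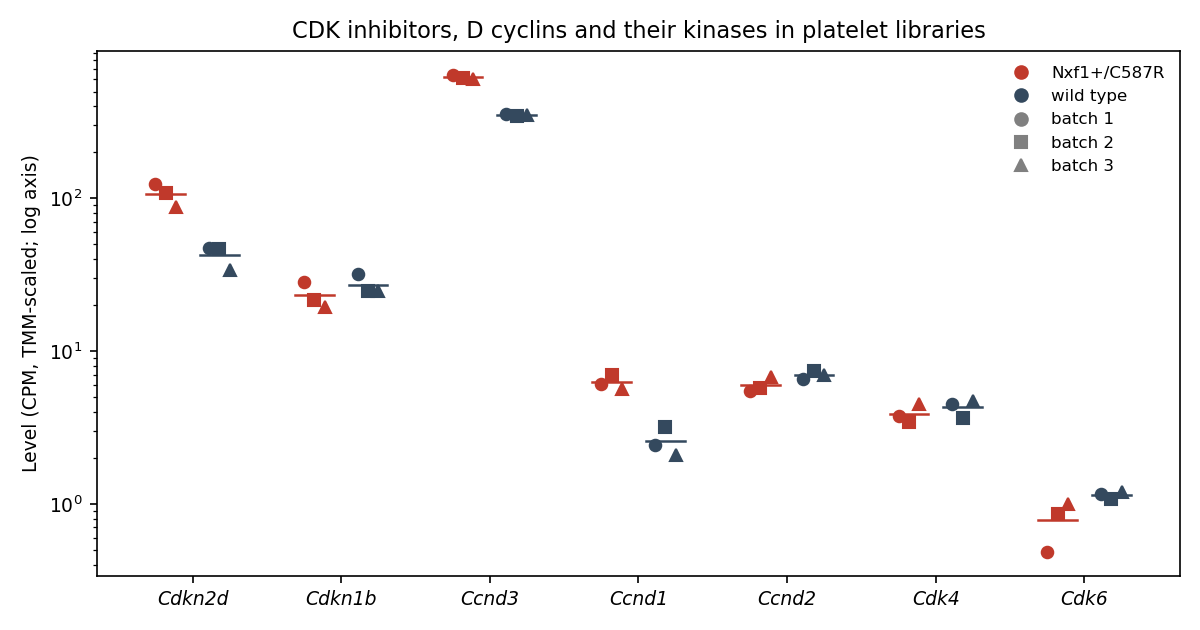
Level of each counted gene in each library, in CPM with TMM-scaled totals on a log axis; red symbols are mutant and dark symbols wild-type libraries, symbol shapes are batches and short lines are means of 3 libraries. Cdkn2d, Ccnd3 and Ccnd1 show mutant libraries wholly above wild-type ones, while Cdkn1b, Ccnd2 and Cdk4 overlap and Cdk6 lies near 1 CPM.

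Levels of different genes were compared as CPM per kilobase of the deposited gene length. In the mutant the order was Ccnd3 at 274 ± 10.1, Cdkn2d at 84.1 ± 14.6, Cdkn1b at 9.63 ± 1.96, Cdk4 at 2.89 ± 0.401, Ccnd1 at 1.64 ± 0.178, Ccnd2 at 1.03 ± 0.114 and Cdk6 at 0.316 ± 0.108 CPM per kilobase (SD, n = 3). In wild type it was Ccnd3 at 155 ± 2.64, Cdkn2d at 33.4 ± 5.77, Cdkn1b at 11.3 ± 1.76, Cdk4 at 3.18 ± 0.409, Ccnd2 at 1.21 ± 0.0683, Ccnd1 at 0.676 ± 0.143 and Cdk6 at 0.464 ± 0.0236 CPM per kilobase (SD, n = 3). The ranges of neighbours in either order did not overlap between libraries. The orders differed in 1 place: Ccnd1 stood above Ccnd2 in the mutant, with ratios of 1.69, 1.84 and 1.29, and below it in wild type, with ratios of 0.563, 0.653 and 0.460. This order rests on the division by length and on levels of Ccnd1 and Ccnd2 that are uncertain because of overlapping genes. In CPM, Ccnd1 at 5.67 was below Ccnd2 at 6.71 in the mutant library of batch 3.

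**Figure D2:**
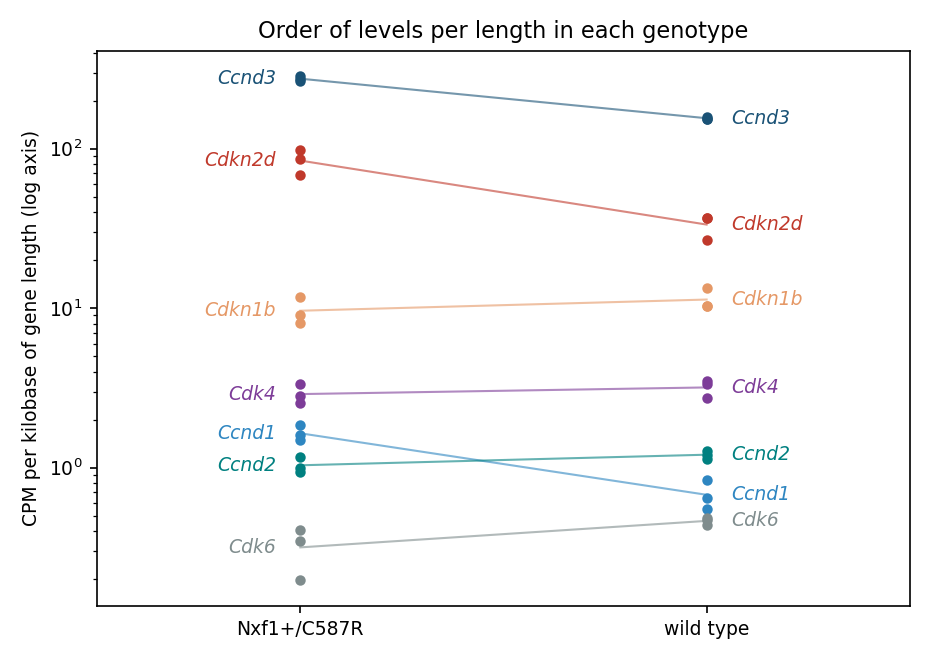
CPM per kilobase of gene length on a log axis for the 7 counted genes in mutant (left) and wild-type (right) platelets; points are libraries and lines join the means of 3 libraries. Ccnd3 and Cdkn2d lie at the top in both genotypes, and the lines of Ccnd1 and Ccnd2 cross.

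By this measure Ccnd3 exceeded 97.5% of all genes in the mutant and 96.5% in wild type, and Cdkn2d exceeded 94.4% and 90.4% in the same order. Ccnd3 held 99.0 ± 0.0783% of the summed level of the 3 D cyclins in mutant and 98.8 ± 0.139% of it in wild-type libraries (mean ± SD of 3 each). The sum was 288, 275 and 268 CPM per kilobase in mutant and 160, 155 and 156 CPM per kilobase in wild-type libraries. Cdkn2d held 89.7 ± 0.665% of the sum of Cdkn2d and Cdkn1b in mutant and 74.5 ± 3.14% in wild-type platelets. The CDK inhibitor gene Cdkn2b, outside the group, is not in that sum. It was at 8.82 CPM per kilobase in mutant and 15.3 CPM per kilobase in wild-type platelets. Relative to Cdkn1b, on the per-kilobase scale, Cdkn2d stood at 8.27, 9.51 and 8.55 in mutant and 2.77, 3.56 and 2.58 in wild-type libraries. The level of Ccnd3 relative to Cdkn2d was 2.92, 3.17 and 3.86 in mutant and 4.28, 4.19 and 5.77 in wild-type libraries, lower in every mutant library. Cdk4 held 90.2 ± 2.87% of the summed level of the 2 kinases in mutant and 87.2 ± 0.944% in wild-type platelets. All of these ratios contain Cdkn2d or genes of the same contrast and are given as descriptions.

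Within each batch the mutant library was set against the wild-type library prepared in the same batch. Cdkn2d was higher by 1.40, 1.23 and 1.36 on the log2 scale in batches 1, 2 and 3, Ccnd1 by 1.28, 1.13 and 1.40, and Ccnd3 by 0.85, 0.83 and 0.78. The 3 differences of Ccnd3 had an SD of 0.036, the smallest of the 7 genes. Ccnd3 also had the most reads of them, 8318 to 17311 per library, and so the least spread from counting. Cdkn1b differed by -0.17, -0.18 and -0.36, Ccnd2 by -0.27, -0.35 and -0.05, and Cdk4 by -0.26, -0.09 and -0.06. Cdk6 differed by -1.14 in batch 1, where the mutant library had 13 reads, and by -0.31 and -0.24 in batches 2 and 3. Apart from Cdkn2d, 2 genes were higher and 4 lower in the mutant in all 3 batches, as were 30.1% and 30.6% of all genes, and nothing is read from these counts. The high erythroid RNA of batch 1 was found in both genotypes. Without that batch the log2 fold changes were 1.25 for Cdkn2d, 1.24 for Ccnd1 and 0.77 for Ccnd3. The part of erythroid RNA in these values was not tested.

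**Figure D3:**
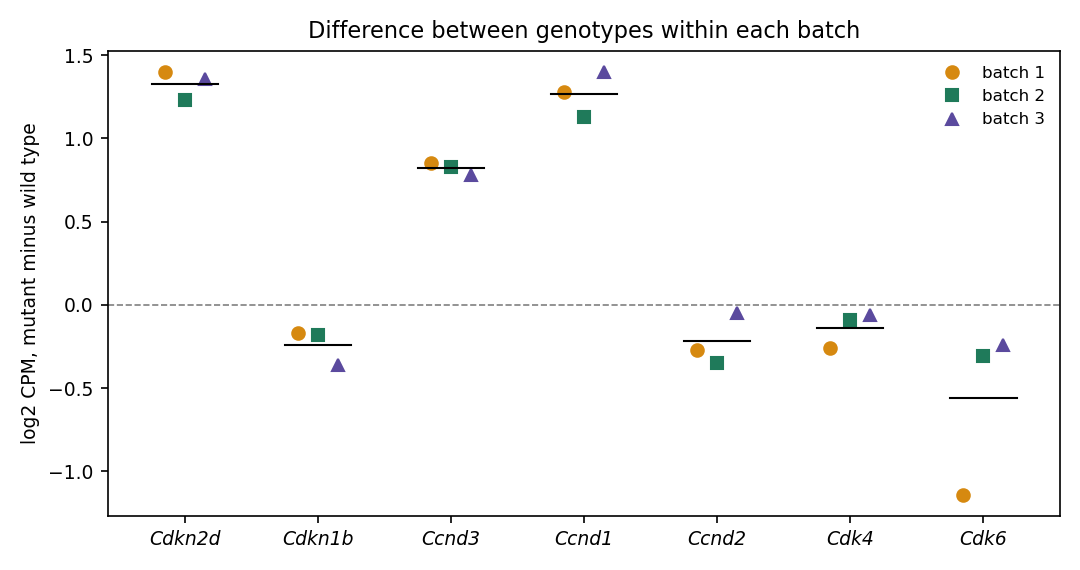
Difference in log2 CPM, mutant minus wild type, within each of 3 batches for the 7 counted genes; symbols are batches, black lines are means of the 3 differences and the dashed line marks no difference. Cdkn2d, Ccnd3 and Ccnd1 lie above the line in each batch, between 0.78 and 1.40, and the other 4 genes lie below it.

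The genes whose profile over the 6 libraries was most like that of Cdkn2d were found among 2841 named genes averaging 10 CPM or more, by the root mean square difference of centred log2 CPM. The 5 nearest were Pdk1, an inhibitory kinase of pyruvate dehydrogenase, at 0.12, Nlk, a kinase related to the MAP kinases, at 0.13, Scamp2, a membrane protein of vesicle recycling, at 0.13, Prkab1, a subunit of the AMP-activated kinase, at 0.15, and Mex3c, an RNA-binding ubiquitin ligase, at 0.15. Pdk1 had 167, 146 and 140 CPM in mutant libraries, against 63.1, 59.6 and 53.3 CPM in wild-type libraries, lowest in batch 3 in both genotypes, as was Cdkn2d. The search picked Pdk1 for this likeness over the same libraries, so nothing is read from it. On this scale Ccnd1 was at 0.18 and Ccnd3 at 0.32.

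Other genes around the pathway were read from lists chosen by function, beside a median log2 fold change of -0.04 over all 9822 genes. The shares of all genes called, 12.9% higher and 9.16% lower, and 22.0% and 18.0% with the batch as a block in edgeR, are the background for each count. The RB and E2F list with the remaining CDK inhibitors had 2 higher and 2 lower of 17 counted genes (4 and 4 with the batch as a block) and a median of 0.06. Cdkn2b, the only other INK4 gene of that list with counts, fell, with 13.0, 11.9 and 12.0 CPM in mutant libraries, against 20.8, 22.4 and 20.9 CPM in wild-type libraries (log2 fold change -0.80 ± 0.12 SE, adjusted p = 5.95e-05 by edgeR). The 2 INK4 genes counted thus stood on opposite sides, Cdkn2b being lower by 0.67, 0.91 and 0.80 on the log2 scale in the 3 batches. Cdkn2b was at 8.82 CPM per kilobase in mutant and 15.3 CPM per kilobase in wild-type platelets, below Cdkn2d in both. Tfdp2, which encodes a partner of the E2F factors, rose to 70.8 ± 8.54 CPM in the 3 mutant libraries, against 41.2 ± 6.22 CPM in the 3 wild-type libraries (mean ± SD). E2f1 (0.71) also rose, and Lin52, of the DREAM repressor complex (-0.65), fell, but both averaged under 2 CPM and lost their call in 7 and 8 of the 9 fits that left out a library or batch. The retinoblastoma gene Rb1, target of the D cyclin kinases, had 19.8, 19.2 and 18.7 CPM in mutant libraries, against 18.5, 18.4 and 18.7 CPM in wild-type libraries, and did not pass (log2 difference 0.05, edgeR adjusted p = 0.801).

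The list of factors that assemble or degrade D cyclins and CDK inhibitors had 2 higher and 3 lower of 23 counted genes (7 and 5 with the batch as a block), with a median of 0.06. Uhmk1, a kinase that phosphorylates the Cdkn1b protein, rose to 12.0 ± 1.47 CPM in the 3 mutant libraries, against 7.39 ± 1.08 CPM in the 3 wild-type libraries (mean ± SD), a log2 fold change of 0.71 ± 0.15 (SE, adjusted p = 0.00151 by edgeR). Skp1, of the SCF ubiquitin ligases (0.35), also rose, and the ubiquitin ligase scaffold gene Cul4b (-0.39), the chaperone gene Hsp90ab1 (-0.34) and Cdc25a (-0.97), a phosphatase gene for CDKs, fell. Cdc25a was above 0.5 CPM of deposited totals in the 3 wild-type libraries and in 0 of the mutant libraries, so it entered the tables through the group where it is high and nothing is read from its call. These 4 lost their call in 7, 4, 6 and 6 of the 9 fits.

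Cyclins and CDKs with roles outside the division cycle had 4 higher and 0 lower of 24 counted genes (7 and 1 with the batch as a block), with a median of -0.01. Ccny, a membrane-bound cyclin, rose to 153 ± 10.1 CPM in mutant, against 87.5 ± 11.3 CPM in wild-type platelets, and Ccni to 147 ± 9.68 CPM, against 97.2 ± 2.33 CPM (SD, n = 3 each). Ccndbp1, named for its binding to D cyclins (0.51), and the Mediator kinase gene Cdk19 (0.50) also rose, and lost their call in 4 and 2 of the 9 fits. Among 14 genes of the p53, FOXO and MYC network, with a median of 0.01, Foxo3, a forkhead factor known to induce CDK inhibitors (0.62), and Mdm2, which restrains p53 (0.53), rose and 0 fell (4 and 2 with the batch as a block). Each lost its call in 1 of the 9 fits. Trp53 had 4.18, 5.51 and 4.52 CPM in mutant libraries, against 4.83, 6.03 and 8.17 CPM in wild-type libraries. It did not pass (log2 fold change -0.43, adjusted p = 0.115 by edgeR) but was called lower with the batch as a block by edgeR (0.00169), though not by DESeq2 (0.15), the largest within-batch difference being -0.84 in batch 3.

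Genes of the division cycle itself were few and low. Of 14 cyclins and CDKs of the cycle other than those already described, 4 had counts, 0 were called by edgeR, DESeq2 or limma-voom, and the median was -0.29. At an unadjusted p under 0.05 2 were lower, with no share of all genes given at that threshold. With the batch as a block in edgeR 2 were called lower. These were Cdk7 (-0.51, blocked adjusted p = 0.00832 by edgeR) and Mnat1 (-0.41, 0.00126), which encode parts of the kinase that activates CDKs. With the same block in DESeq2 neither passed (adjusted p = 0.18 and 0.0684). Cdk2, target of the CIP/KIP inhibitors, was at 0.857, 1.18 and 1.11 CPM in mutant libraries, against 1.12, 0.915 and 1.00 CPM in wild-type libraries. Of 30 replication and mitosis genes 16 had counts, and together they summed to 26.4 to 34.8 CPM in mutant libraries, against 30.1 to 37.9 CPM in wild-type libraries. Tpx2, a spindle assembly factor (-0.76), was the only one called, and lost its call in 7 of the 9 fits, while 3 were lower with the batch as a block. The proliferation marker Mki67 had 2.54, 1.59 and 1.89 CPM in mutant libraries, against 2.32, 0.915 and 1.42 CPM in wild-type libraries, and did not pass (log2 fold change 0.37, adjusted p = 0.398 by edgeR).

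**Figure D4:**
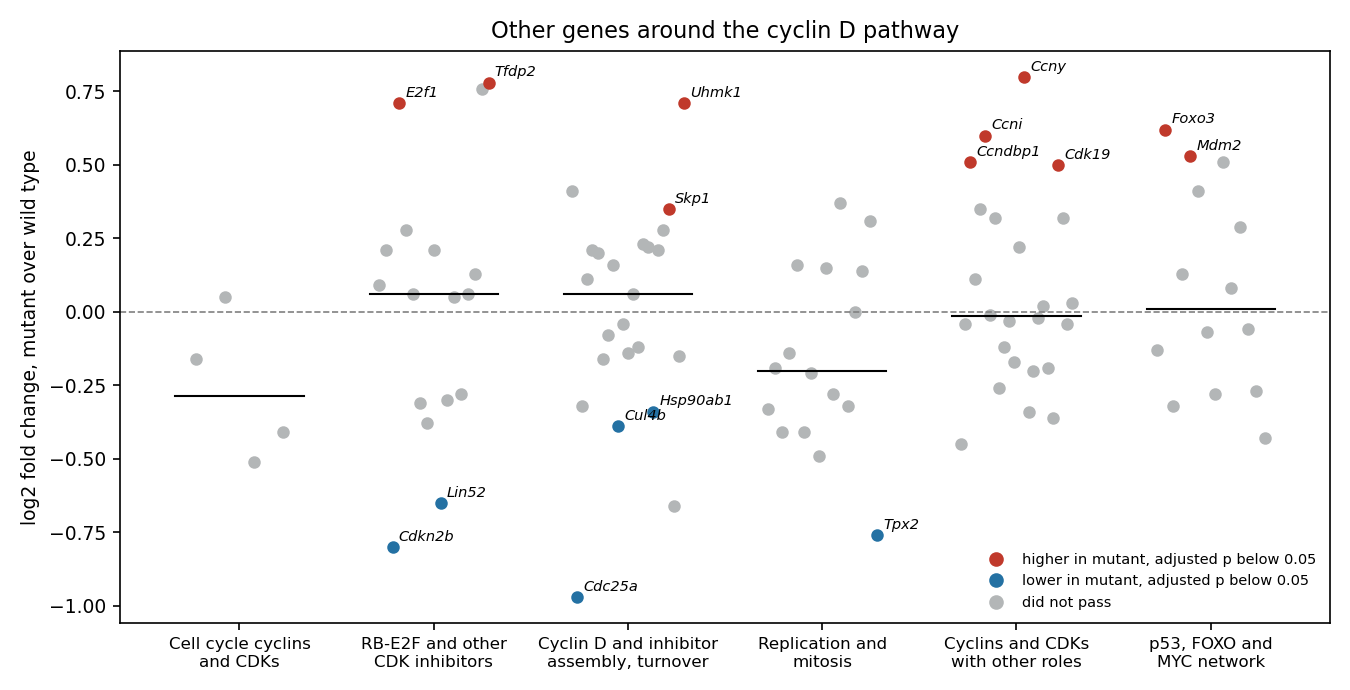
log2 fold change, mutant over wild type, of each counted gene in 6 lists around the pathway; red points passed as higher, blue points as lower, grey points did not pass at an adjusted p of 0.05, and black lines are list medians. Ccny (0.80) and Tfdp2 (0.78) lie highest among called genes and Cdc25a (-0.97) lowest, and the medians lie between -0.29 and 0.06. By CPM of deposited totals, Cdc25a was above 0.5 CPM in wild-type libraries only, and nothing is read from its call.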

How the data were processed

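PolyA RNA of purified platelets was sequenced in 6 libraries, 3 per genotype. Counts of reads per gene, beside the gene length, are the values the authors deposited. The tools CASAVA 1.8.2, Subread and featureCounts and the build mm10 are named in the submitters' processing notes, without settings. Of 9822 Entrez identifiers 9636 matched a symbol in the RefSeq table of GRCm38.p6. Counts were tested with edgeR 4.0.16 (R 4.3.3): TMM scaling, filterByExpr (0 genes removed), genotype alone in a robust quasi-likelihood model, two-sided test, Benjamini-Hochberg adjustment over all genes, threshold 0.05. The SE is the log2 fold change over the square root of F. This model leaves out the pairing by batch, so its p-values, SEs and intervals include variation between batches. The spread between pools beyond counting noise (edgeR biological coefficient of variation) was 14.2% in it and 5.73% with the batch as a block. A gene that did not pass in it may pass with the block, as Cdkn1b did in edgeR but not in DESeq2. CPM use TMM-scaled totals, and within-batch differences add 2 counts scaled to the library. Exon overlaps came from GENCODE. The genes, lists and tests were chosen with earlier results of these data known.

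Named were the 10 genes, up to 4 called genes with the smallest p per list, the 5 profiles nearest to Cdkn2d, and Nxf1; Hsp90ab1, Rb1, Trp53, Cdk2, Cdk7, Mnat1, Mki67 and the overlapping genes were added after their values were seen. The batch pairs the libraries per the labels: across genes, same-batch libraries deviated from their group means with correlations of 0.431, 0.271 and 0.482, and libraries of different batches with at most -0.0104. Taking out the group means makes the values of different batches negative on balance once those of the same batch are positive. The negative values thus add nothing to the same-batch ones. No 2 libraries of a genotype agreed within sampling noise (mean chi-square per gene at least 14.6; 85.8 to 104 where batch 1 was involved). The alternatives comprised other scalings, DESeq2 1.42.0, limma-voom (limma 3.58.1), a filter on mean CPM, the 10 most abundant genes left out, a gene length correction (loess, span 0.5), the batch as a block, and each library or batch left out.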

Additional observations from a re-analysis of the deposited data

How the results depend on the processing

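The rises of Ccnd1 and Ccnd3 passed under each alternative in which they were tested, and Cdkn2d stayed higher, at 1.17 to 1.46. None of the 7 genes reversed. Of the 6 genes other than Cdkn2d, only Ccnd3 and Cdkn1b averaged 10 CPM or more and entered the fit with that minimum. There Ccnd3 was called higher and Cdkn1b lower. With the replicate block by edgeR 1 was lower (Cdkn1b), and the block changed no other call among the 6. Cdk6 rests on 13 to 37 reads per library. The causes of the changes given here were not tested.

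Among the 3021 genes averaging 10 CPM or more, 725 (24.0%) were called higher and 756 (25.0%) lower. Over all genes the block gave 2164 higher and 1765 lower. Leaving out 1 library or batch gave 485 to 1387 higher and 520 to 1002 lower, both lowest without batch 2. It gave 0 to 1 lower for cell cycle cyclins and CDKs, 1 to 2 in each direction for the RB and E2F list, 1 to 3 higher and 0 to 2 lower for assembly and turnover, 0 to 2 lower for replication and mitosis, 2 to 5 higher for other cyclins and CDKs, and 0 to 3 higher (0 without batch 2) and 0 to 1 lower for the p53, FOXO and MYC list.

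With the block by edgeR, the cell cycle list had 2 lower, the RB and E2F list 4 higher and 4 lower, assembly and turnover 7 higher and 5 lower, replication and mitosis 3 lower, other cyclins and CDKs 7 higher and 1 lower, and the p53, FOXO and MYC list 4 higher and 2 lower. With the block by DESeq2, the cell cycle list had 0 lower, the RB and E2F list 2 higher and 1 lower, assembly and turnover 5 higher and 2 lower, replication and mitosis 0 lower, other cyclins and CDKs 5 higher and 0 lower, and the p53 list 5 higher and 0 lower. Over all 9822 genes the block by DESeq2 gave 1572 higher and 912 lower. The RB and E2F list had 1 higher with upper-quartile factors, library size alone, DESeq2, the 10 CPM minimum or without the 10 most abundant genes, and 1 lower with relative log expression factors, library size alone, DESeq2, the 10 CPM minimum or the length correction. Assembly and turnover had 0 higher with the 10 CPM minimum and 1 higher with relative log expression factors, library size alone, DESeq2 or without the 10 most abundant genes. Replication and mitosis had 0 lower with library size alone or DESeq2. Over all genes, upper-quartile factors gave 1178 higher and 1026 lower, relative log expression factors 1181 and 875, and library size alone 956 and 909. DESeq2 without the block gave 1135 and 734, leaving out the 10 most abundant genes 1060 and 1014, and the length correction 1442 and 774. The 10 CPM minimum left 0 genes of the cell cycle and the replication lists, which thus have no value there. It left 5 of the RB and E2F list, 9 of assembly and turnover, and 8 other cyclins and CDKs. Of these 8 cyclins and CDKs, 4 were called higher and 1 lower.

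The mean within-batch difference of Ccnd3 was 0.74 with library size alone. With lengths ignored, Ccnd1 held 0.985% of D cyclin counts in mutant and 0.713% in wild-type libraries, Ccnd2 0.947% and 1.93%, and Ccnd3 98.1% and 97.4%. Cdkn2d then held 82.2% of the counts of Cdkn2d and Cdkn1b in mutant and 60.8% in wild-type libraries, and Cdk4 83.5% and 78.8% of kinase counts.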

Other observations

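Some genes of the lists followed the batch more than the genotype. E2f2, an E2F factor with a known role in red cell precursors, had 11.0, 2.98 and 4.71 CPM in mutant and 9.20, 2.54 and 3.75 CPM in wild-type libraries of batches 1, 2 and 3, and Ubac1, of a ubiquitin ligase for the Cdkn1b protein, had 4.32, 1.35 and 1.37 CPM in mutant and 4.52, 1.37 and 1.97 CPM in wild-type libraries. Both were chosen after their values were seen. The haemoglobin gene Hba-a1 was at 19107, 2704 and 3011 CPM in mutant and 21556, 2899 and 2887 CPM in wild-type libraries. Among the 7 genes described above, Cdkn1b was higher in batch 1 than in the mean of batches 2 and 3 by 0.47 in mutant and 0.37 in wild-type libraries (log2 CPM), and Cdkn2d by 0.35 and 0.24, while Ccnd3 differed by 0.09 and 0.04.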
